A study of Mus musculus with 23 samples.

Results

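The response of F9 cells to 12 h of all-trans retinoic acid (RA) was measured by RNA sequencing, with untreated cells at 0 h as the reference. The comparison takes 6 of the 23 samples of the series, picked by title, namely replicates 1 and 2 of mRNA at 12 h and replicates 1 to 4 of mRNA at 0 h. F9 is an established mouse embryonal carcinoma line, here without any genetic change named in the labels. RA was dissolved in dimethyl sulfoxide (DMSO) and given at 1e-07 M to cells seeded 16 h earlier on gelatine-coated plates. Cells at 0 h carry RA as their treatment label with a time of 0 h. Cells that got DMSO alone, at 0.001%, were sequenced once at 24 h and once at 48 h, and no solvent control of 12 h was analysed here. Libraries of RA at 6, 24 and 48 h, 2 at each time, entered the same fit. The labels do not say that the libraries of a group came from separate cultures, so p-values measure only the spread between libraries, which may be technical.

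Retinoic acid enters the nucleus and binds RA receptors (RAR), which sit on DNA as dimers with retinoid X receptors (RXR). Binding of the ligand releases corepressors and brings coactivators to the target gene. The enzymes that store and destroy retinoids are themselves targets, so cells that meet RA raise their capacity to clear it. In embryonal carcinoma cells RA is known to activate the Hox A and Hox B clusters, to end the pluripotent state and, in F9 cells, to start differentiation toward extraembryonic endoderm.

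The 6 libraries held between 7078941 and 10575806 counts on genes. The 12 libraries of RA treatment and 0 h form 2 sets, with replicate 1 of each time in set 1 and the others in set 2. The percentage of counts outside any gene feature was 57.3 to 59.43% in set 1 and 52.51 to 53.77% in set 2, and 57.36% and 58.46% in the DMSO libraries, which carry no replicate number. Of the 6 libraries compared, 2 belong to set 1 and 4 to set 2. The fit carried a term for the set, so that 12 h was compared with 0 h within sets. Levels are in CPM (the counts-per-million unit), a gene's counts relative to the counts of the tested genes in its library, with TMM scaling between libraries. They are given below in the order of the replicates. Changes are fitted log2 differences between 12 h and 0 h with their standard error. The groups are said not to overlap when both 12 h libraries lie beyond all 4 libraries of 0 h. In these bulk libraries fewer cells of a type and less RNA per cell cannot be told apart.

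Of 15491 genes tested, 2070 (13.4%) differed at an adjusted p under 0.05, the rule for a call in all that follows. Of these, 1194 (7.71% of the genes tested) were higher after 12 h of RA and 876 (5.65%) were lower. The increases were larger than the decreases, with 274 genes up by at least 4-fold against 77 down by as much, and medians of 1.11 and -0.75 on the log2 scale. The median over all genes tested was 0.00. In 1679 of the called genes the libraries of 12 h and 0 h did not overlap, which held for 4057 (26.2%) of all genes tested. Within set 1 and within set 2 taken separately, 1193 of the 1194 genes called higher and 873 of the 876 called lower had the sign of the fit. The same libraries entered the fit that made the calls, so the shared sign is not a separate check. The number of calls rested on both 12 h libraries, since it was 644 without 12 h replicate 1 and 469 without replicate 2, and 381 genes (318 higher, 63 lower) were called in each fit that left out 1 library. Without the set term 454 genes were called, 356 higher and 98 lower. Counts of list members given below for these fits are to be read beside these counts over all genes, which fell as well. A smaller count in such a fit is therefore not in itself a trait of the list.

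**Figure D1:**
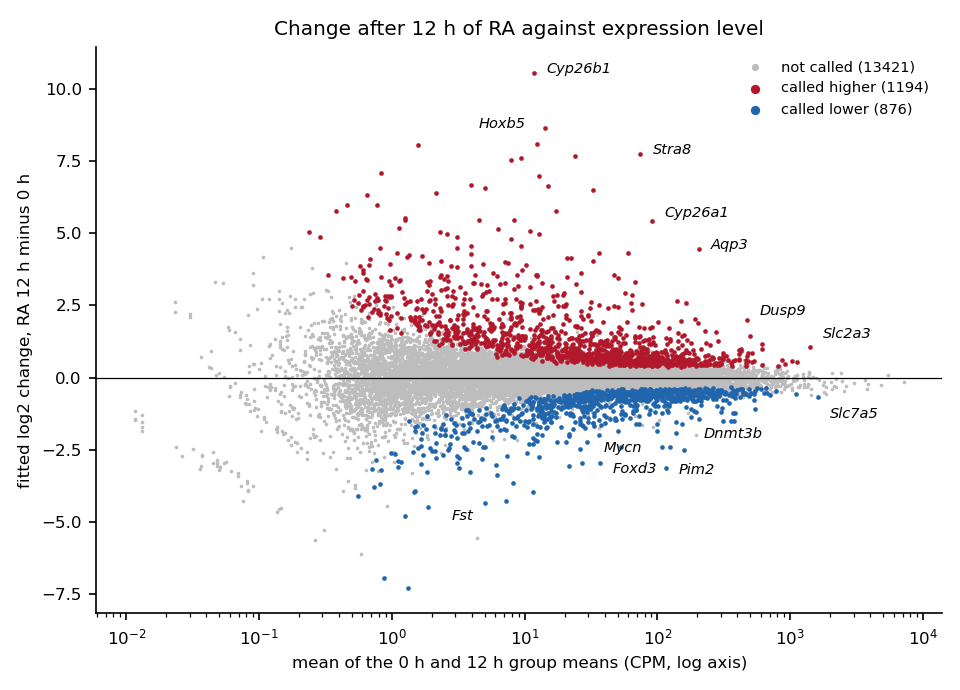
Fitted log2 change between RA at 12 h and 0 h against the mean of the 2 group means in CPM on a log axis, 1 point per gene tested, with 1194 genes called higher in red and 876 called lower in blue. The increases reach further from 0 than the decreases. The height of Cyp26b1, which had no count at 0 h, depends on the prior count of the fit.

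**Figure D2:**
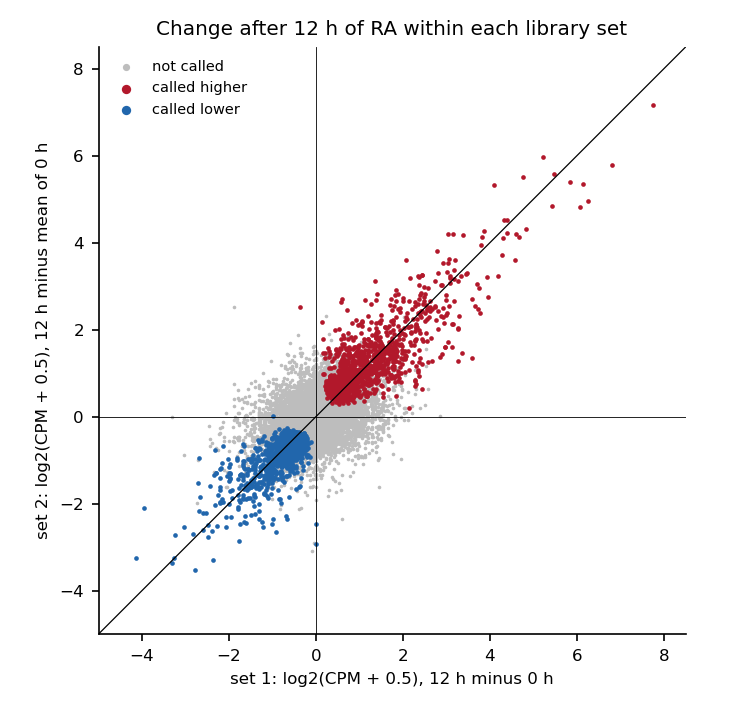
Difference in log2(CPM + 0.5) between 12 h and 0 h within set 1 (horizontal, 1 library per time) and within set 2 (vertical, 1 library against the mean of 3), 1 point per gene tested. The genes called higher (red) and lower (blue) lie in the same quadrants in both sets with few exceptions. The calls were made with these same libraries.

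Genes that handle retinoids were among the largest increases. Of 30 genes on a list of the retinoid pathway 27 were tested, and 10 rose and 2 fell (44.4% called, against 13.4% of all genes). The median was 0.09 over the tested members against 0.00 over all genes. Among the 10 were Stra6, Lrat, Dhrs3, Crabp2, Cyp26a1, Cyp26b1, Cyp26c1, Rarb and Nrip1. Stra6, a membrane receptor for retinol uptake, stood at 0.299, 0.186, 0.317 and 0 CPM at 0 h and at 21.2 and 29.2 CPM at 12 h. The groups did not overlap, and the log2 change was 6.97 ± 0.35 (adjusted p = 3.18e-08). Dhrs3, which reduces retinal back to retinol, was at 0.449, 0.557, 0.74 and 0.877 CPM before RA and at 22.1 and 14.3 CPM after (4.55 ± 0.29, adjusted p = 3.38e-07). Lrat, which esterifies retinol for storage, stayed low, at 0.15, 0.371, 0.423 and 0.39 CPM at 0 h and 1.68 and 2.62 CPM at 12 h, with a change of 2.74 ± 0.47 (adjusted p = 0.00201). Its call was lost without 12 h replicate 2 (adjusted p = 0.0753). Crabp2, which delivers RA to its receptors, had 10, 5.2, 7.08 and 5.55 CPM at 0 h and 96.1 and 77.2 CPM at 12 h. No library of 0 h came near the 12 h values, and the change was 3.54 ± 0.15 (adjusted p = 1.52e-08).

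All 3 genes of the CYP26 family, the hydroxylases that clear RA, rose. Cyp26a1 stood at 1.65, 6.12, 7.5 and 2.73 CPM at 0 h and at 122 and 232 CPM at 12 h, a change of 5.41 ± 0.35 (adjusted p = 2.93e-06). Both libraries at 12 h exceeded the highest of 0 h many times over, and that of set 2 was the higher of them. Cyp26b1 had no count in any library of 0 h and 33 and 13.7 CPM at 12 h. Against a floor of 3 counts over the 0 h group it was at least 275-fold higher (adjusted p = 0.000397). Here the library of set 1 was the higher one, the reverse of Cyp26a1. Cyp26c1 was at 0, 0.186, 0.211 and 0 CPM at 0 h and 5.52 and 3.55 CPM at 12 h (5.03 ± 0.65, adjusted p = 0.000201). It was the least abundant of the family at 12 h by CPM, a level that is not corrected for gene length. In the DMSO libraries of 24 h and 48 h Cyp26a1 stood at 0.697 and 0.52 CPM, below all 4 values of 0 h, and Cyp26b1 and Cyp26c1 had no counts.

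Among the receptors, Rarb rose while the genes of the other receptor subtypes did not. Rarb had 0.599, 0.464, 0.846 and 1.17 CPM at 0 h and 26 and 23.3 CPM at 12 h, a change of 4.98 ± 0.25 (adjusted p = 3.03e-08), and its 2 libraries at 12 h were close to each other. Rara stood at 172, 70.8, 89.7 and 105 CPM and then 176 and 103 CPM, with overlapping groups and a change of 0.17 ± 0.16 (adjusted p = 0.517). Rarg, at 649, 509, 689 and 522 CPM at 0 h and 626 and 459 CPM at 12 h, differed by -0.24 ± 0.15 (adjusted p = 0.318). Of the RXR genes, Rxra went from 57.9, 31.8, 26.3 and 29.6 CPM to 26.6 and 14.1 CPM, a fall of 1.07 ± 0.20 on the log2 scale (adjusted p = 0.00379). Within each set the 12 h library of Rxra was the lower one, but across sets the groups overlapped, and the call was lost without either 12 h library (adjusted p of up to 0.0892) and without the set term (adjusted p = 0.47). Rxrb (-0.57 ± 0.19, adjusted p = 0.0605) and Rxrg (0.09 ± 0.44, adjusted p = 0.912) were not called.

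Of the coregulators, Nrip1, a corepressor that binds liganded nuclear receptors, moved most. It stood at 13.9, 15.3, 9.2 and 13.6 CPM at 0 h and at 130.3 and 115 CPM at 12 h, with no overlap and a change of 3.29 ± 0.22 (adjusted p = 6.82e-07). Neither Ncor1 (0.33 ± 0.17, adjusted p = 0.204) nor the coactivators Ncoa1 (-0.12 ± 0.30), Ncoa2 (0.38 ± 0.23) and Ncoa3 (-0.22 ± 0.10) were called. The enzymes that make RA were not called either, among them Rdh10, at 8.98, 6.96, 6.76 and 7.89 CPM at 0 h and 9.12 and 7.01 CPM at 12 h (-0.04 ± 0.21), and Aldh1a2 (-0.60 ± 0.78), whose SE was wide. Rdh11 (-0.34 ± 0.23), Crabp1 (-0.28 ± 0.57), Fabp5 (-0.62 ± 0.39), Rbp4 (-0.95 ± 1.35) and Aldh1a1 (-3.05 ± 2.13) were likewise below the threshold, the last 2 at a few counts or none per library. Of the list, Dhrs9, Bco1 and Aldh1a3 had too few counts to be tested. Without the set term, and also without 12 h replicate 1, the list had 10 members higher and 0 lower, and without replicate 2 it had 9 and 0.

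The promoters of Rarb and Cyp26a1 are shown because they were the only genes called higher whose start region held a direct repeat spaced by 5 bases, the arrangement best known for RAR and RXR dimers. The half-site AGGTCA and its variants AGTTCA, as well as GGTTCA and also GGGTCA, were searched on both strands, in tandem with 5 bases between them, from 250 bases before to 50 after the start of each gene in RefSeq (GRCm38.p6). The stretches below end at the base before the start, run 5′ to 3′ on the strand of the gene and carry the half-sites in capitals, at chr14:16575477-16575626 (minus strand) for Rarb and chr19:37697658-37697807 (plus strand) for Cyp26a1.
Rarb: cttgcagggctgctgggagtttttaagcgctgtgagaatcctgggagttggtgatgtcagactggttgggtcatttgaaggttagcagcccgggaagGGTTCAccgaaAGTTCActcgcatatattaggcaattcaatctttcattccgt
Cyp26a1: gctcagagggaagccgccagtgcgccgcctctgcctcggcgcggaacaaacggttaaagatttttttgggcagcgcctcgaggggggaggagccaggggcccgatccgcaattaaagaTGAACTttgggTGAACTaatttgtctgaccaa
In Rarb the repeat reads on the strand of the gene, from 53 to 37 bases before the start. In Cyp26a1 it lies 32 to 16 bases before the start and reads on the opposite strand, so that its half-sites appear as their reverse complements.

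Repeats of this strict form were rare in these windows. They were found in 32 of 32851 windows in the table (0.0974%) and in 5 of the 10564 tested genes with a window (0.0473%). Of 879 genes called higher with a window 2 held one (0.228%), of 630 called lower 0 held one, and of 9055 not called 3 did (0.0331%). None of the 9 windows available for the 15 largest increases by the naming rule held one. With 2 bases between the half-sites, 12 tested genes (0.114%) had a match, 4 of them called higher (0.455%) and 0 called lower. These 4, named after their values were seen, were Tinagl1, Ano1, Casd1 and Slc25a21. With 1 base between them, 29 tested genes (0.275%) matched, of which 2 were called higher (0.228%). A match is a string of letters and not evidence of binding, and no match says only that these letters are not in the window. Tinagl1, a secreted matrix protein, had 1.8, 1.95, 3.28 and 1.07 CPM at 0 h and 18.1 and 12.2 CPM at 12 h, a change of 2.72 ± 0.31 (adjusted p = 7.48e-05). The calls of Ano1 (2.15 ± 0.63) and Casd1 (0.93 ± 0.22) were lost without either 12 h library (adjusted p of up to 0.333 and 0.156), and that of Ano1 also without 0 h replicate 1, 2 or 4. Neither was called without the set term (adjusted p = 0.146 and 0.37). Slc25a21 stood at 0.12 and 2.9 CPM at 12 h and at 0.299, 0.0928, 0 and 0.195 CPM at 0 h. Its call came from 12 h replicate 2, without which the adjusted p was 1, and it was also lost without 0 h replicate 2 and without the set term (adjusted p = 0.119).

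**Figure D3:**
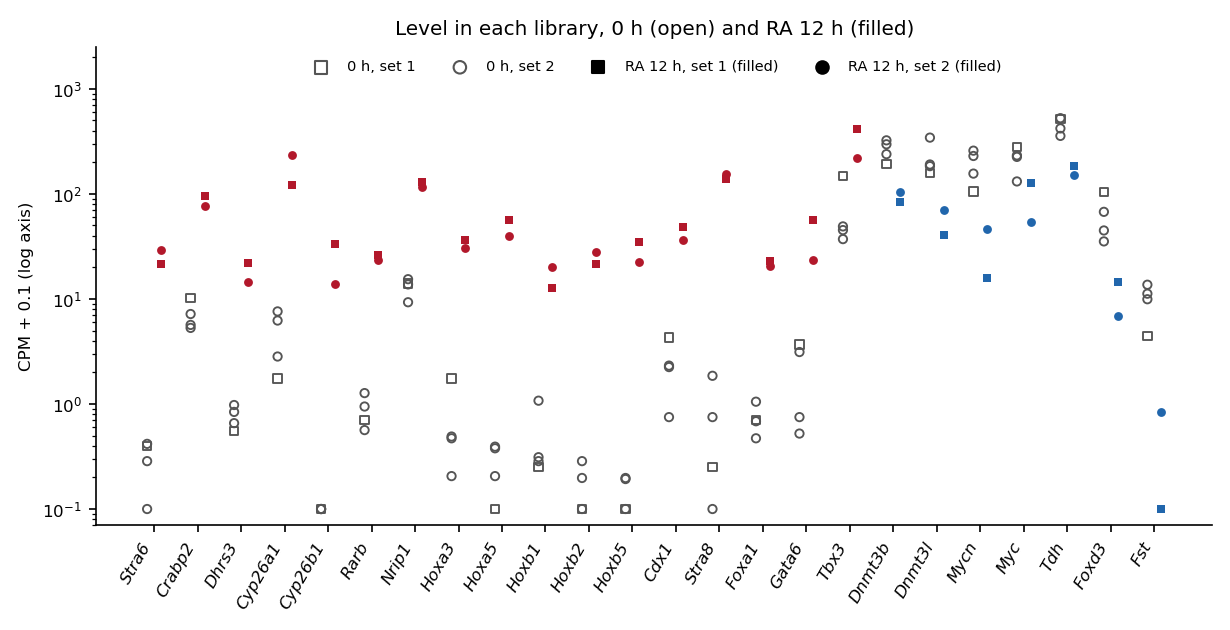
Level of 24 genes in each library of 0 h (open) and of RA at 12 h (filled, red where the fitted change was positive and blue where it was negative), as CPM + 0.1 on a log axis, with squares for set 1 and circles for set 2. For each gene drawn both 12 h libraries lie on 1 side of all 4 libraries of 0 h.

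The Hox clusters A and B, a source of homeobox factors that pattern the body axis, rose from low levels. Of 9 tested genes in Hox A 7 were called higher and 0 lower (77.8% called, against 13.4% of all genes, median 4.04). Hoxa2 to Hoxa5, Hoxa7 and Hoxa10 were among the 7. Of 10 in Hox B 8 were higher and 0 lower (80% called), namely Hoxb1 to Hoxb8. The median of Hox B was 6.05, or 5.41 with genes at 0 to 3 counts at 0 h set to their bound or count ratio. The summed level of the tested Hox A genes was 4.228 to 8.088 CPM over the libraries of 0 h and 172.2 to 191.1 CPM at 12 h. For Hox B the sums were 2.114 to 7.699 CPM and 109.5 to 127.2 CPM. Hoxa3 went from 1.65, 0.371, 0.106 and 0.39 CPM to 36.4 and 30.8 CPM (5.76 ± 0.33, adjusted p = 1.47e-07). Hoxa5 had 0, 0.278, 0.106 and 0.292 CPM at 0 h and 55.8 and 39.5 CPM at 12 h (7.67 ± 0.32, adjusted p = 1.52e-08). Hoxa4, at 3 counts in all of 0 h, had 20.9 and 16.6 CPM at 12 h and a count ratio of 229 with a 95% interval of 77.8 to 1117, an interval that, like those below, covers counting error only. Hoxa2 changed by 4.57 ± 0.35 and Hoxa7 by 3.19 ± 0.29, each with groups that did not overlap. Hoxa10, nearer the 5′ end, was at 0.599, 0.371, 0 and 1.07 CPM and then 2.16 and 3.46 CPM. Its call (2.71 ± 0.74) was lost without 0 h replicate 2, without either 12 h replicate (adjusted p of up to 0.206) and without the set term (adjusted p = 0.225).

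In the Hox B cluster Hoxb5 had 2 counts over the whole of 0 h and 34.6 and 22.2 CPM at 12 h, a count ratio of 514 with a 95% interval of 142 to 4253, adjusted p = 3.03e-08. Hoxb2, with 3 counts at 0 h, stood at 21.6 and 27.7 CPM at 12 h, a ratio of 309.9 with a 95% interval of 105 to 1508, adjusted p = 1.87e-08. Hoxb1, the most 3′ gene of the cluster, had 0.15, 0.186, 0.211 and 0.975 CPM at 0 h and 12.5 and 20 CPM at 12 h, a change of 5.47 ± 0.41 (adjusted p = 1.94e-06). The highest of its 0 h libraries was still far below both 12 h libraries. Hoxb4 went from 0, 0.0928, 0 and 0.78 CPM to 37.9 and 22.1 CPM (6.62 ± 0.50, adjusted p = 2.93e-06), and Hoxb3, at 2 counts over 0 h, reached 11.3 and 4.49 CPM, a ratio of 139 with a 95% interval of 37.7 to 1156. The 5′ members were low at 12 h. Hoxb6, which had no count at 0 h, stood at 0.6 and 2.71 CPM, at least 22.1-fold higher, and its call was lost without 12 h replicate 2 (adjusted p = 0.0794). Hoxb7 stood at 2.16 and 2.24 CPM, a ratio of 41 with a 95% interval of 10.7 to 349.8, and Hoxb8 at 0.96 and 0.934 CPM at 12 h. The call of Hoxb8 (2.57 ± 0.79) was lost without either 12 h library, without 0 h replicate 2, 3 or 4 (adjusted p of up to 0.304) and without the set term (adjusted p = 0.128). Hoxb9 was not called, at 1.35, 1.95, 1.37 and 5.17 CPM and then 4.8 and 6.26 CPM (1.24 ± 0.40, adjusted p = 0.058). Without 12 h replicate 1 clusters A and B had 6 and 7 members called higher, and without replicate 2 they had 6 and 6.

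Long non-coding RNAs within these clusters moved with them. Hoxb3os was at 0.299, 0, 0 and 0 CPM at 0 h and 22.2 and 9.44 CPM at 12 h, a ratio of 279 with a 95% interval of 76.6 to 2318. Hoxaas2 was at 0.15, 0.0928, 0.106 and 0.0974 CPM and then 9 and 11 CPM (6.56 ± 0.41, adjusted p = 2.66e-07). Hotairm1, which was named after its values were seen, was at 1.95, 1.49, 0.846 and 0.975 CPM and then 16.4 and 21.6 CPM (3.90 ± 0.30, adjusted p = 2.25e-06). They run opposite to Hox genes that they overlap or adjoin, and since the sources used here do not say whether counting used strand, their reads and those of the Hox genes cannot be told apart. The Hox C and Hox D clusters had 7 and 5 genes with enough counts to be tested and 0 called in either, against 13.4% of all genes. Hoxc4 (0.15, 0, 0 and 0.0974 CPM at 0 h, 0.24 and 0.654 CPM at 12 h, 2.92 ± 0.97, adjusted p = 0.0632) and Hoxc13 (0.27 ± 0.80, adjusted p = 0.854) were the most abundant members tested of Hox C by CPM. In Hox D, Hoxd11 stood at 2.4, 0.557, 1.8 and 3.41 CPM and then 0.96 and 0.187 CPM (-2.25 ± 0.79, adjusted p = 0.0756), and Hoxd13 differed by -0.51 ± 0.63 (adjusted p = 0.633).

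Partners of the Hox proteins and the Cdx factors, which act upstream of Hox genes, were higher in 5 of 11 tested cases and lower in 0 (45.5% called, against 13.4% of all genes, median 0.85). Cdx1 stood at 4.19, 0.65, 2.22 and 2.14 CPM at 0 h and 48.6 and 35.9 CPM at 12 h, a change of 4.13 ± 0.29 (adjusted p = 8.55e-07). Its fitted change was above those of the partners named below. Pbx2 was at 52.2, 53.8, 52.2 and 46.4 CPM and then 113 and 103 CPM (1.03 ± 0.15, adjusted p = 0.000658), with replicates within a narrow range. Pknox2 changed by 1.69 ± 0.30 (adjusted p = 0.0025) and Meis2 by 1.49 ± 0.30 (adjusted p = 0.00817), the latter lost without 12 h replicate 2 (adjusted p = 0.173).

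Other genes among the 15 largest increases included 3 regulators. Stra8, which is known for starting meiosis in germ cells exposed to RA, had 0.15, 0.65, 0 and 1.75 CPM at 0 h and 139.9 and 156 CPM at 12 h. It was the most abundant of the 15 at 12 h by CPM, and the change was 7.74 ± 0.44 (adjusted p = 8.55e-07). Stra8 was 1 of 16 tested members of a list of meiotic entry and the germ line. It was the 1 called higher, with 0 lower (6.25% called, against 13.4% of all genes, median 0.56). Rec8, a meiotic cohesin subunit named after its values were seen, stood at 5.69, 5.1, 7.93 and 9.06 CPM and then 9.96 and 9.06 CPM (0.44 ± 0.27, adjusted p = 0.299). Zfp703, a zinc finger protein, was at 1.2, 0.557, 0.423 and 0.78 CPM at 0 h and 63.1 and 66.9 CPM at 12 h (6.51 ± 0.36, adjusted p = 2.58e-07). Olig3, a basic helix-loop-helix factor of neural progenitors, was at 0.15, 0.278, 0.106 and 0.292 CPM and then 4.8 and 12.8 CPM (5.47 ± 0.50, adjusted p = 1.05e-05). Its level in set 2 exceeded that in set 1 at 12 h, and both exceeded every library of 0 h.

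Regulators of endoderm were higher in part. Of 18 tested transcription factors of endoderm 6 were called higher and 1 lower (38.9% called, against 13.4% of all genes, median 0.47). Foxa1, a pioneer factor, had 0.599, 0.371, 0.951 and 0.585 CPM at 0 h and 22.7 and 20.3 CPM at 12 h, a change of 5.08 ± 0.24 (adjusted p = 2.33e-08). Gata6, a determinant of primitive endoderm, stood at 3.59, 0.65, 0.423 and 3.02 CPM and then at 56.6 and 23.4 CPM (4.14 ± 0.41, adjusted p = 5.45e-05). Its 2 libraries of 12 h lay apart, with set 1 the higher, and neither overlapped with 0 h. Sox7 was at 83.8, 57.1, 39.4 and 34.8 CPM and then 137 and 124 CPM (1.23 ± 0.21, adjusted p = 0.00239). The call of Sox7 was lost without 12 h replicate 2 (adjusted p = 0.0881). Prdm1 (1.33 ± 0.36) and Klf6 (0.52 ± 0.12) were lost without either 12 h library (adjusted p of up to 0.34 and 0.164) and without the set term, and Prdm1 also without 0 h replicate 3 or 4. Gata4, at 15.7, 8.35, 14.9 and 11.1 CPM at 0 h and 25.8 and 12.9 CPM at 12 h, was not called (0.34 ± 0.29, adjusted p = 0.475). Sox17 (-0.92 ± 0.60, adjusted p = 0.382) and Foxa2 (0.58 ± 0.80, adjusted p = 0.674) were at about 1 CPM or less in all 6 libraries. Without 12 h replicate 1 the list had 4 members higher and 0 lower, and without replicate 2 it had 3 and 0.

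Basement membrane genes were called in part and products of visceral endoderm were not. Of 27 tested genes of parietal endoderm and basement membrane 5 were called higher and 1 lower (22.2% called, against 13.4% of all genes, median 0.18), and of 9 tested products of visceral endoderm 0 were called either way (median -0.92). Col4a1, a collagen IV chain, stood at 83.8, 37.7, 40 and 69.6 CPM at 0 h and 243 and 106 CPM at 12 h (1.36 ± 0.24, adjusted p = 0.00272). Nid1, which links collagen IV and laminin, was at 64.5, 35, 30.9 and 50.9 CPM and then 126 and 80.1 CPM (1.07 ± 0.20, adjusted p = 0.00334). In both genes the library of set 1 was the higher at each time. Lamb1, a laminin chain, went the other way, from 79.7, 65.1, 71.9 and 105 CPM to 49.1 and 40.6 CPM, a fall of 0.94 ± 0.19 on the log2 scale (adjusted p = 0.00662). Col4a2 (1.23 ± 0.32) and Plat (1.73 ± 0.49), a plasminogen activator, were the others by the naming rule. These calls depended on single libraries. Col4a1 and Nid1 were lost without 12 h replicate 1 (adjusted p = 0.0545 and 0.067), Lamb1 without either 12 h library (0.111), Col4a2 also without 0 h replicate 1 or 3 (up to 0.291) and Plat also without 0 h replicate 1, 2 or 4 (up to 0.301), and none was called without the set term (adjusted p from 0.0634 to 0.202). The parietal list had 0 members called without 12 h replicate 1, and without replicate 2 it had 2, both higher. Dab2, which marks both endoderm types, stood at 7.79, 0.464, 1.9 and 12.2 CPM at 0 h and 3.24 and 1.87 CPM at 12 h, with wide spread at 0 h (-1.31 ± 1.08, adjusted p = 0.472). Lrp2, an endocytic receptor of visceral endoderm, differed by -0.25 ± 0.50 (adjusted p = 0.783).

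Genes of the pluripotent state moved in both directions. Of 34 tested members 8 were called lower and 4 higher (35.3% called, against 13.4% of all genes, median -0.34). The core factor Pou5f1 had 2399, 1738, 2279 and 2039 CPM at 0 h and 1913 and 1342 CPM at 12 h, the level of an abundant transcript in all 6 libraries, as the label of an embryonal carcinoma line implies. Its groups overlapped across sets, and the change of -0.56 ± 0.18 was not called (adjusted p = 0.0526). Sox2 was at 827, 532, 463 and 453 CPM and then 428 and 434 CPM (-0.45 ± 0.18, adjusted p = 0.119), with most of the difference in set 1. Nanog, the other core factor, went the other way, from 280.0, 409, 291 and 270.1 CPM to 359 and 550.3 CPM (0.60 ± 0.18, adjusted p = 0.0408). Its groups overlapped, and the call was lost without 0 h replicate 3 or 4, without either 12 h library (adjusted p of up to 0.448) and without the set term (adjusted p = 0.341). Mycn fell from 105, 229, 258 and 156 CPM to 15.8 and 46.2 CPM, by 2.41 ± 0.27 on the log2 scale (adjusted p = 0.000108). Vrtn, a DNA-binding protein, fell from 8.23, 29.1, 26.1 and 24.2 CPM to 0 and 2.34 CPM (-3.95 ± 0.53, adjusted p = 0.000301). In both genes set 1 had the lowest value at each time, and without the set term their adjusted p was 0.062 and 0.0854. Utf1, a chromatin protein of pluripotent cells, fell by 1.49 ± 0.26 on the log2 scale (adjusted p = 0.00339) and Sall1 by 1.26 ± 0.25 (adjusted p = 0.00483). Lin28a, an inhibitor of let-7 maturation, was at 487, 312, 527 and 453 CPM at 0 h and 276 and 229 CPM at 12 h (-0.87 ± 0.19, adjusted p = 0.00876).

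Tbx3, a T-box factor, was the member of that list with the largest rise. It had 147, 48.9, 37 and 45.1 CPM at 0 h and 412 and 220.5 CPM at 12 h, a change of 2.03 ± 0.21 (adjusted p = 3.47e-05, and 0.0721 without the set term). Its level was higher in set 1 than in set 2 at both times. Dppa2 was at 62.1, 56.9, 77.6 and 70.3 CPM and then 118 and 121 CPM (0.86 ± 0.14, adjusted p = 0.0012), a rise seen alike in both sets. Tfcp2l1, a factor of naive pluripotency, changed by 0.68 ± 0.20 (adjusted p = 0.0399). That call was lost without 0 h replicate 3 or 4, without either 12 h library (adjusted p of up to 0.441) and without the set term. Utf1 was lost without 12 h replicate 2 (adjusted p = 0.107), and Sall1 and Lin28a without either 12 h library (up to 0.0832 and 0.175), and none of the 3 was called without the set term (adjusted p from 0.0941 to 0.431). Fewer members of the list were called when either 12 h library was left out, as over all genes. The fit without the set term left 1 member higher and 0 lower, where 356 and 98 of all genes were called.

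Dnmt3b and Dnmt3l, genes of de novo DNA methylation, fell in both sets. Of 10 tested genes of DNA methylation 2 were called lower and 0 higher (20% called, against 13.4% of all genes, median -0.16). Dnmt3b, a de novo methyltransferase, went from 193, 239, 323 and 296 CPM at 0 h to 83.8 and 105 CPM at 12 h, a fall of 1.36 ± 0.15 on the log2 scale (adjusted p = 5.45e-05). Dnmt3l, its catalytically inactive partner, went from 159, 184, 343 and 190.3 CPM to 40.2 and 69.4 CPM, a fall of 1.91 ± 0.27 (adjusted p = 0.000589). All 12 h values of both genes lay below all values of 0 h. Among 23 tested Polycomb genes 2 were higher and 2 lower (17.4% called, near the 13.4% of all genes, median -0.06). Cbx7, a subunit of Polycomb repressive complex 1, fell from 180.2, 167, 163 and 167 CPM to 89.8 and 102 CPM (-0.82 ± 0.13, adjusted p = 0.000979). Mtf2, which targets Polycomb repressive complex 2 to CpG islands, rose from 253, 355, 306 and 357 CPM to 399 and 611 CPM (0.81 ± 0.14, adjusted p = 0.00162, and 0.401 without the set term). Cbx6 (-0.62 ± 0.16) and Bmi1 (0.74 ± 0.23) were called but lost without either 12 h library (adjusted p of up to 0.221 and 0.32) and without the set term, and Bmi1 also without 0 h replicate 2 or 3.

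Myc and some genes of ribosome biogenesis fell. Of 28 tested members of that list 10 were called lower, 0 higher and 18 not called (35.7% called, against 13.4% of all genes, median -0.35). Myc itself stood at 279.7, 131, 225 and 232 CPM at 0 h and 128 and 53.4 CPM at 12 h, a fall of 1.59 ± 0.23 on the log2 scale (adjusted p = 0.000654). Its 12 h libraries lay below all of 0 h, although set 1 at 12 h came close to the lowest library of 0 h, and without the set term the adjusted p was 0.23. Bop1, which takes part in processing of large-subunit ribosomal RNA, was at 257, 217, 346 and 242 CPM and then 184 and 138 CPM (-0.81 ± 0.18, adjusted p = 0.0105). Rrp9, a component of the U3 snoRNP, fell by 0.80 ± 0.17 (adjusted p = 0.00826) and Odc1, the first enzyme of polyamine synthesis and a known target of Myc, by 0.74 ± 0.18 on the log2 scale (adjusted p = 0.0165). These 3 were lost without either 12 h library (adjusted p of up to 0.213) and without the set term (adjusted p from 0.151 to 0.494). The list had 4 members lower without 12 h replicate 1, 2 without replicate 2 and 0 without the set term, with 0 higher in each.

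The largest decreases by the naming rule came from low or middling levels. Fst, an inhibitor of activin, stood at 4.34, 13.6, 9.83 and 11.1 CPM at 0 h and 0 and 0.748 CPM at 12 h, a fall of 4.34 ± 0.56 on the log2 scale (adjusted p = 0.000191, and 0.0559 without the set term). Pla2g7, which hydrolyses platelet-activating factor, was at 14.4, 13.2, 19.6 and 13.2 CPM and then 1.68 and 0.841 CPM (-3.66 ± 0.46, adjusted p = 0.000172). Prickle1, a planar cell polarity protein, was at 4.64, 9, 8.98 and 5.75 CPM and then 0.48 and 0.841 CPM (-3.27 ± 0.42, adjusted p = 0.000191). In none of these did a 12 h library reach the lowest of 0 h. Pim2, a serine/threonine kinase, fell from 91.3, 193, 340.4 and 219.8 CPM to 17.3 and 24.5 CPM (-3.13 ± 0.37, adjusted p = 0.00024). Slc27a2, a fatty acid transporter and acyl-CoA synthetase, fell from 32.8, 41.6, 30.2 and 50.1 CPM to 3 and 5.61 CPM (-3.07 ± 0.35, adjusted p = 6.2e-05). Foxd3, a forkhead factor of pluripotent cells and neural crest, fell from 105, 35.2, 67.3 and 44.7 CPM to 14.4 and 6.82 CPM (-2.96 ± 0.30, adjusted p = 2.97e-05, and 0.14 without the set term). Set 1 was the higher set for Foxd3 at both times and the lower one for Pim2 at both times.

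Otx2, a homeobox factor of primed pluripotency and anterior identity, had 13.3, 59.5, 97.3 and 26.5 CPM at 0 h and 1.2 and 8.88 CPM at 12 h. The groups did not overlap, but the libraries of 0 h ranged widely and those of DMSO stood at 19.9 and 34.4 CPM (-2.94 ± 0.54, adjusted p = 0.00477). Evx1, a homeobox factor of the primitive streak, fell from 10.9, 11.8, 19.1 and 3.31 CPM to 0.24 and 1.78 CPM (-3.36 ± 0.81, adjusted p = 0.0179). Lef1 (-4.27 ± 0.72), a nuclear partner of beta-catenin, Wnt5a (-3.13 ± 0.59), a Wnt ligand, Clnk (-3.01 ± 0.49), an adaptor protein, Apol6 (-2.96 ± 0.73), of the apolipoprotein L family, and Sema6a (-2.83 ± 0.53), a semaphorin, complete this group. Lef1, Wnt5a and Clnk were lost without 12 h replicate 2 (adjusted p of up to 0.123), and Otx2, Evx1, Apol6 and Sema6a without either 12 h library (up to 0.234). Otx2, Evx1, Lef1 and Apol6 were also not called without the set term (adjusted p from 0.106 to 0.267). Apol6 belongs to a family of similar genes, among which the counting could split reads.

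The largest gains in mean CPM were in genes already abundant at 0 h. Slc2a3, a glucose transporter, had 953, 1116, 851 and 804 CPM at 0 h and 1565 and 2211 CPM at 12 h (1.07 ± 0.16, adjusted p = 0.000657). Slc2a1, a second glucose transporter, had 719, 806, 979 and 769 CPM and then 1165 and 1290.0 CPM (0.58 ± 0.16, adjusted p = 0.03). The call of Slc2a1 was lost without 0 h replicate 1, 2 or 4, without either 12 h library (adjusted p of up to 0.331) and without the set term (adjusted p = 0.142). Dusp9, a phosphatase that inactivates MAP kinases, went from 243, 177, 133 and 168 CPM to 810.4 and 726 CPM (2.01 ± 0.15, adjusted p = 1.94e-06). Rpa1, which binds single-stranded DNA, went from 380.3, 385, 346 and 361 CPM to 911 and 789 CPM (1.16 ± 0.12, adjusted p = 3.47e-05), and Nudt4, a hydrolase of inositol polyphosphates, from 337, 213, 230.0 and 278 CPM to 717 and 735 CPM (1.43 ± 0.14, adjusted p = 1.97e-05). Mcl1, an inhibitor of apoptosis, was at 357, 356, 489 and 464 CPM and then 784 and 816 CPM (0.98 ± 0.14, adjusted p = 0.000383). All 6 had groups that did not overlap.

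The largest losses in mean CPM were led by transporters and by metabolic enzymes. Slc7a5, a carrier of large neutral amino acids, went from 2420.0, 1692, 1850.0 and 1648 CPM to 1559 and 1079 CPM (-0.66 ± 0.11, adjusted p = 0.00151), a call lost without 12 h replicate 2 (adjusted p = 0.0725) and without the set term (adjusted p = 0.381). Slc20a1, a phosphate carrier, went from 540.4, 484, 564 and 562 CPM to 225 and 232 CPM (-1.22 ± 0.12, adjusted p = 2.75e-05), and Slc7a3, a carrier of cationic amino acids, from 631, 654, 750.3 and 679.5 CPM to 339 and 431 CPM (-0.79 ± 0.11, adjusted p = 0.000494). The 12 h libraries of Slc20a1 lay close together, and those of Slc7a3 lay further apart. Tdh, the threonine dehydrogenase on which mouse pluripotent cells are known to depend, fell from 517, 356, 525 and 419.6 CPM to 182 and 151 CPM, by 1.49 ± 0.18 on the log2 scale (adjusted p = 9.64e-05). Pmm1, a phosphomannomutase, was at 765, 538, 849 and 734 CPM and then 413 and 317 CPM (-1.09 ± 0.17, adjusted p = 0.000962). Plec, a cytoskeletal linker, fell by 1.48 ± 0.20 on the log2 scale (adjusted p = 0.000282), and neither Pmm1 nor Plec was called without the set term (adjusted p = 0.071 and 0.329). Of 23 tested genes of threonine, serine and one-carbon metabolism 5 were lower and 2 higher (30.4% called, against 13.4% of all genes, median -0.19). The 2 were Amt (0.56 ± 0.17), of the glycine cleavage system, and Slc1a5 (0.49 ± 0.11), a glutamine carrier, both lost without either 12 h library (adjusted p of up to 0.274 and 0.131) and without the set term, and Amt also without 0 h replicate 1 or 4. Without 12 h replicate 1 this list had 0 members higher and 3 lower, and without replicate 2 it had 0 and 2.

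Genes of 5 signalling pathways were called in both directions, at 24 to 31.2% of the tested members of each list against 13.4% of all genes. In the BMP list 3 of 20 tested genes were higher and 2 lower (median -0.06). Smad6, an inhibitor of BMP signalling, rose from 2.84, 3.62, 1.8 and 2.63 CPM to 17.2 and 15.1 CPM (2.48 ± 0.24, adjusted p = 1.96e-05). Msx2, a homeobox target of BMP, rose from 2.69, 4.92, 3.59 and 4 CPM to 7.8 and 18.5 CPM (1.89 ± 0.24, adjusted p = 0.000157). Neither overlapped with 0 h. Id1, another target of BMP, went from 468, 560.3, 477 and 381 CPM to 263 and 318 CPM (-0.69 ± 0.16, adjusted p = 0.0114), and Chrd, which binds BMPs outside the cell, fell by 1.93 ± 0.37 on the log2 scale (adjusted p = 0.00409). Msx1 changed by 1.75 ± 0.39. Id1, Chrd and Msx1 were lost without either 12 h library (adjusted p of up to 0.174), and Id1 and Msx1 also without the set term (adjusted p = 0.0711 and 0.401). The list had 2 members higher and 0 lower without 12 h replicate 1 or 2. In the Nodal and activin list 3 of 18 were higher and 2 lower (median -0.14). Beside Fst these were Skil (0.64 ± 0.11), a repressor of SMAD signalling, lost without 12 h replicate 1 (adjusted p = 0.056), and Lefty1 (0.95 ± 0.28), Inhbb (0.67 ± 0.20) and Foxh1 (-0.67 ± 0.21), each lost without either 12 h library and without at least 1 of the 0 h libraries (adjusted p of up to 0.28, 0.252 and 0.394). The libraries of 0 h were replicates 1, 2 and 3 for Lefty1 and Inhbb and replicate 2 for Foxh1, and none of the 4 was called without the set term. Lefty1 stood at 72 and 81.1 CPM in the DMSO libraries, against 29.5, 18.6, 19.9 and 25 CPM at 0 h and 73.7 and 37.8 CPM at 12 h.

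In the FGF list 4 of 21 tested genes were higher and 2 lower (median -0.14). Spry2, a feedback inhibitor of receptor tyrosine kinases, went from 454, 227, 220.1 and 175 CPM to 200.3 and 114 CPM (-0.96 ± 0.16, adjusted p = 0.00151). It was lower at 12 h within each set, with overlap across sets, and not called without the set term (adjusted p = 0.468). Fgf17, a ligand, fell by 2.70 ± 0.58 on the log2 scale (adjusted p = 0.00836). The receptor genes Fgfr4 (2.04 ± 0.45) and Fgfr3 (1.18 ± 0.31) and the inhibitor Spred2 (0.63 ± 0.19) rose. Fgf17 was lost without either 12 h library (adjusted p of up to 0.115), Fgfr4 without 12 h replicate 1 (0.193), Fgfr3 without 12 h replicate 2 or 0 h replicate 4 (up to 0.411) and Spred2 without either 12 h library or 0 h replicate 2, 3 or 4 (up to 0.265). Without the set term none of these 3 increases was called (adjusted p = 0.0711, 0.12 and 0.252), and the list had 0 members higher and 1 lower. Without 12 h replicate 1, and again without replicate 2, the list had 1 member higher and 1 lower.

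In the Wnt list 2 of 25 tested genes were higher and 4 lower (median -0.25). Wnt6, a ligand, fell from 28.4, 17.8, 26.1 and 14.6 CPM to 9.72 and 5.79 CPM (-1.71 ± 0.29, adjusted p = 0.00153, and 0.158 without the set term). Sp8, a zinc finger factor of Wnt responses, rose from 5.54, 2.69, 3.28 and 3.8 CPM to 15.2 and 23.3 CPM (2.34 ± 0.32, adjusted p = 0.000303). Sfrp5, a secreted Wnt inhibitor, was at 1.65, 1.02, 1.37 and 1.56 CPM at 0 h and 3.24 and 5.89 CPM at 12 h (1.75 ± 0.32), a call lost without 12 h replicate 2 (adjusted p = 0.185). Leaving out 12 h replicate 2 left 1 member of the list higher and 1 lower. In the Notch list 1 of 16 was higher and 4 lower (median -0.29). The ligand gene Jag1 fell from 19.8, 25.3, 18.8 and 23.4 CPM to 3.24 and 7.1 CPM (-1.98 ± 0.27, adjusted p = 0.000277) in both sets. Notch4, a receptor, rose from 37.1, 28.9, 31.6 and 22.9 CPM to 69.7 and 52.6 CPM (0.92 ± 0.17, adjusted p = 0.00309), a call lost without 12 h replicate 2 (adjusted p = 0.073) and without the set term (0.0711). Jag2 (-1.33 ± 0.28), Hes6 (-0.97 ± 0.18) and Notch1 (-0.63 ± 0.15) were lost without either 12 h library (adjusted p of up to 0.13, 0.0784 and 0.186) and without the set term. Of the list, 1 member higher and 1 lower were left without 12 h replicate 1, and 0 and 1 without replicate 2.

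Cell cycle genes were higher in 5 of 31 tested cases and lower in 2 (22.6% called, against 13.4% of all genes, median 0.13). Ccng2, a cyclin of growth-arrested cells, rose from 5.54, 8.72, 7.61 and 9.65 CPM to 14.3 and 19.4 CPM (1.21 ± 0.19, adjusted p = 0.000979, and 0.0734 without the set term). The DMSO libraries, at 11 and 19 CPM, reached into the range of 12 h. Ccnd2 (1.30 ± 0.36), a D-type cyclin, Cdkn1b (0.56 ± 0.16), a cyclin-dependent kinase inhibitor, Cdk6 (-1.11 ± 0.29) and Btg2 (-0.91 ± 0.18), an antiproliferative gene, were lost without either 12 h library (adjusted p of up to 0.244, 0.408, 0.27 and 0.0775) and without the set term, and Ccnd2 also without 0 h replicate 2 and Cdkn1b without 0 h replicate 4. The list had 1 call, higher, without 12 h replicate 1 and likewise without 12 h replicate 2. Immediate early genes were lower in 3 of 15 tested cases and higher in 0 (20% called, against 13.4% of all genes, median -0.53). Fosl1 fell from 4.94, 4.45, 4.23 and 4 CPM to 1.8 and 0.374 CPM (-2.28 ± 0.48, adjusted p = 0.00755), Nr4a1 by 0.81 ± 0.14 on the log2 scale (adjusted p = 0.00193) and Egr1 by 1.27 ± 0.37 (adjusted p = 0.0411). Fosl1 was lost without 12 h replicate 2 (adjusted p = 0.186), Nr4a1 without 12 h replicate 1 (0.0514), Egr1 without either 12 h library or 0 h replicate 1, 2 or 4 (up to 0.262), and each without the set term.

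Markers of other fates were called in shares from 0 to 31.2% of each list, against 13.4% of all genes. Of 16 tested neural markers 3 were higher and 2 lower (31.2%, median 0.25), with Neurog3, a proneural factor, lower, from 6.74, 9.37, 8.88 and 11.4 CPM to 2.04 and 2.34 CPM (-2.05 ± 0.40, adjusted p = 0.00483). Pax6 (0.86 ± 0.22), Sox3 (at 7.08 and 14 CPM against 5.09, 1.58, 4.97 and 3.7 CPM) and Elavl3 (0.71 ± 0.22) were higher and Tubb3 (-0.70 ± 0.14) lower, and all 5 calls were lost without either 12 h library (adjusted p of up to 0.548 over the 5), those of Sox3 also without 0 h replicate 2, 3 or 4 and of Elavl3 without 0 h replicate 1, 2 or 3. Without the set term Neurog3 alone of the 5 was called (adjusted p = 0.0324). Isl1 was the 1 of 15 mesoderm markers called (2.38 ± 0.74), with 0.72 and 1.78 CPM at 12 h, and its call was lost without any 1 of the 6 libraries (adjusted p of up to 0.572) and without the set term (0.152). Of 7 tested trophoblast markers 0 were called. Tfap2c, the most abundant of them, had 9.88, 29.5, 11.7 and 5.36 CPM at 0 h and 11.8 and 63.5 CPM at 12 h (1.49 ± 0.53, adjusted p = 0.0911), and the higher level in set 2. Gata3 differed by 0.72 ± 0.36 (adjusted p = 0.203). Of 25 adhesion and cytoskeleton genes 1 was higher and 2 lower (median -0.09). Esrp1, an epithelial splicing factor, and Grhl2, a factor of epithelial identity, were lower, the latter going from 17.7, 43.1, 85.1 and 35.6 CPM to 2.52 and 10.6 CPM (-2.47 ± 0.47, adjusted p = 0.00547). In DMSO Grhl2 stood at 17.6 and 20.7 CPM and Esrp1, which fell by 2.22 ± 0.43 on the log2 scale, at 8.08 and 7.41 CPM against 7.49, 30.4, 70.7 and 31.2 CPM at 0 h. For both genes the DMSO values were nearest to 0 h replicate 1, the 0 h library of set 1. Tjp1 changed by 0.51 ± 0.13, and all 3 were lost without either 12 h library (adjusted p of up to 0.197) and without the set term. Among 21 Klf and T-box factors Klf16 (-0.81 ± 0.18) fell and Klf6 and Tbx3 rose (median -0.02), with Klf16 lost without either 12 h library (adjusted p of up to 0.154) and without the set term (0.478).

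Markers of fibroblasts, endothelium and blood served to check the cultures. Of 15 listed genes 7 had enough counts to be tested, and 2 were higher and 1 lower (42.9% called, against 13.4% of all genes). The summed level of the 7 was 66.02 to 90.57 CPM at 0 h and 87.48 to 93.45 CPM at 12 h. Pecam1, an adhesion molecule of endothelium that mouse pluripotent cells also express, rose from 22.5, 32.2, 32.3 and 22.8 CPM to 48.8 and 62 CPM (1.17 ± 0.18, adjusted p = 0.000909, and 0.161 without the set term). Pdgfrb rose from 0.299, 0.371, 0.846 and 0.585 CPM to 3 and 4.02 CPM (2.88 ± 0.43, adjusted p = 0.000657), and Thy1 fell by 2.28 ± 0.41 on the log2 scale (adjusted p = 0.00273), a call lost without 12 h replicate 2 (0.115). Defining markers of fibroblasts and of blood were at or near 0. Col1a2, Postn, Hbb-bt and Hba-a1 had no count in any of the 6 libraries, and Col3a1, Dcn, Lum and Ptprc had at most 3 counts in each.

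**Figure D4:**
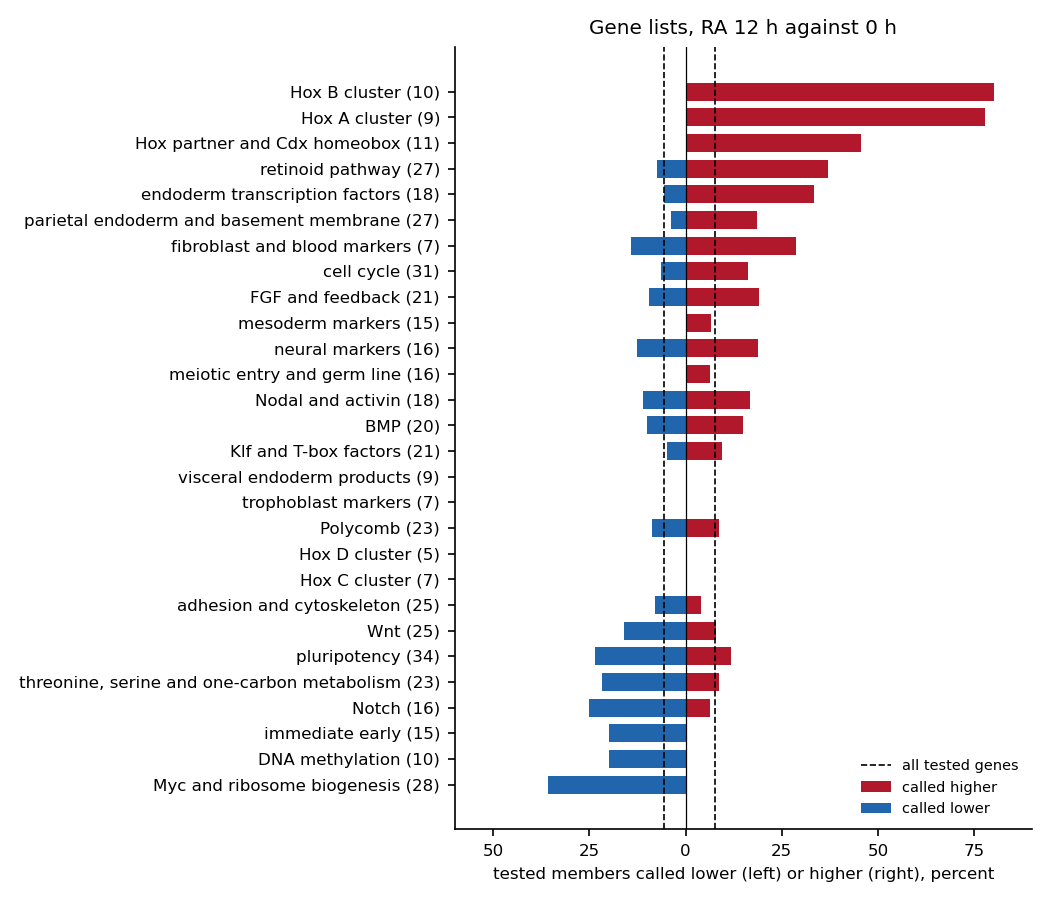
Share of the tested members of each gene list called higher (red, right) or lower (blue, left) at 12 h against 0 h, in percent, with the number tested in parentheses. Dashed lines mark the shares over all 15491 genes, 7.71% higher and 5.65% lower. The Hox B and Hox A clusters lie furthest to the right and the list of Myc and ribosome biogenesis furthest to the left.

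A comparison with RA at 6 h asked what had changed between the 2 early times. Of the same 15491 genes 3 (0.0194%) were called at 12 h against 6 h, all higher, and 837 (5.40%) had an unadjusted p under 0.05, 420 higher and 417 lower. The 3 were Crabp2, Hoxa5 and Hoxb2. Crabp2 stood at 23.8 and 19.3 CPM at 6 h, so that the change from 6 h to 12 h was 2.00 ± 0.17 (adjusted p = 0.000234). Hoxa5 stood at 16.3 and 8.53 CPM at 6 h (1.98 ± 0.25, adjusted p = 0.00858) and Hoxb2 at 5.08 and 5.02 CPM (2.27 ± 0.26, adjusted p = 0.00551). In each the 12 h libraries lay above both of 6 h. DESeq2 with the same terms called 38 genes, 26 higher and 12 lower. There was 1 gene left without 6 h replicate 1, without 6 h replicate 2 or without 12 h replicate 2, and 2 were left without 12 h replicate 1.

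Values at the other times are given side by side, since the comparisons of each time share the libraries of 0 h. The 1194 genes called higher at 12 h had median log2 changes against 0 h of 0.78 at 6 h, 1.11 at 12 h, 1.14 at 24 h and 1.02 at 48 h. The 876 called lower had medians of -0.45, -0.75, -0.725 and -0.80 at those times. Single genes took different courses. Aqp3, a water and glycerol channel named after its values were seen, stood at 16.2, 22.3, 21.9 and 12.1 CPM at 0 h, at 336 and 408 CPM at 6 h, at 350.5 and 428 CPM at 12 h and at 54.1 and 52 CPM at 48 h. Its level at 12 h was about that of 6 h (0.06 ± 0.21, adjusted p = 0.986). Notch4 was at 118 and 115 CPM at 6 h, above both libraries of 12 h, and at 5.93 and 2.71 CPM at 48 h. Egr1, lower at 12 h than at 0 h, was at 24 and 67.2 CPM at 6 h. Dppa2 stood at 152 and 140.3 CPM at 6 h and 43.6 and 42 CPM at 48 h, and Rpa1 at 969 and 644 CPM at 24 h and 309.9 and 282 CPM at 48 h, below each library of 0 h. Mycn stood at 15.8 and 46.2 CPM at 12 h and at 135 and 166 CPM at 48 h. Gata4, not called at 12 h, stood at 139 and 38.6 CPM at 24 h and 265 and 179 CPM at 48 h, and Col4a1 at 549.7 and 368 CPM and 2013 and 1633 CPM.

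**Figure D5:**
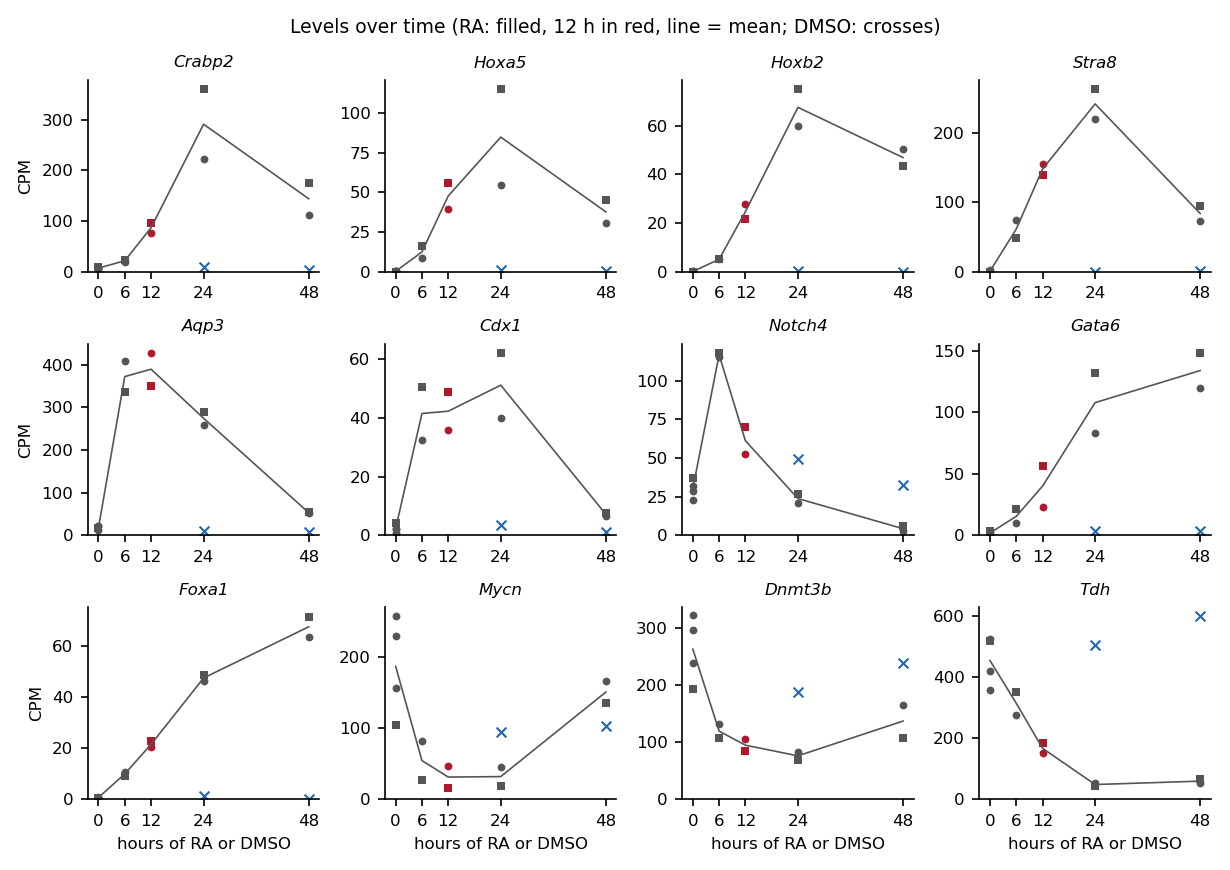
Level in CPM of 12 genes at 0, 6, 12, 24 and 48 h of RA, 1 point per library (squares set 1, circles set 2, 12 h in red) with a line through the means, and in the 2 DMSO libraries (crosses). Crabp2, Hoxa5 and Hoxb2 rise between 6 h and 12 h, and Aqp3 and Cdx1 are at about the same level at both times.

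Most genes called at 12 h differed in the same direction from the DMSO libraries. Both 12 h libraries lay above both DMSO libraries for 1037 of the 1194 genes called higher (86.9%), against 27.7% of all genes tested. For 809 of the 876 called lower (92.4%, against 26.0% of all genes) both lay below both. The DMSO libraries have no replicates and come from other times, so no test was made. The genes were called with these same 12 h libraries, which favours a shared direction, so the shares over all genes are not a like baseline. Stra8 was at 0 and 0.26 CPM, Hoxa5 at 1.11 and 0.13 CPM, Gata6 at 3.76 and 3.77 CPM, Dnmt3b at 188 and 239 CPM and Tdh at 506 and 601 CPM in DMSO at 24 h and 48 h, nearer to the levels of 0 h than to those of 12 h in each case. Pim2, at 109.8 and 143 CPM, lay above 12 h and below 3 of the 4 libraries of 0 h, and Mycn, at 94.5 and 103 CPM, lay above 12 h and below all 4. In 0 h replicate 1, the 0 h library of set 1, Pim2 stood at 91.3 CPM and Mycn at 105 CPM. The DMSO libraries had a share of counts outside gene features within the range of set 1. Library set and DMSO cannot be told apart in these values, and neither was tested.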

How the data were processed

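The mRNA of F9 cells was sequenced in single-end reads on 2 instruments, per the labels' protocols, which do not say which library ran on which. Reads were aligned to mm9 with TopHat2 2.0.7 and counted with HTSeq, per the submitters' processing notes. The strand setting and annotation version are not given in the sources used here. The deposited values are whole-number counts per gene for each library, not normalized by the authors. The 5 non-gene entries, 72.52 to 76.78% of all counts, were left out. IDs were paired with symbols for 31841 of 36814 genes.

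Counts of the 12 mRNA libraries of 0, 6, 12, 24 and 48 h were fitted with edgeR 4.0.16 (R 4.3.3, filterByExpr, TMM, robust quasi-likelihood test) with terms for time and library set, leaving 6 residual degrees of freedom. The p-values were adjusted by Benjamini-Hochberg over all 15491 genes tested. The DMSO libraries entered no fit. CPM used TMM scaling over 14 libraries. Levels are not corrected for gene length. Chi-square per degree of freedom between libraries of a group at 0 h and 12 h was 10.8 to 36.93, so none was treated as a repeat deposit of another, which does not show that they came from separate cultures.

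The sets follow the replicate numbers. The log2 difference between replicates 1 and 2 of a group correlated between groups at 0.691 to 0.846 over 10 pairs of groups (Pearson's r across genes). These values show a difference between the sets that the times share. Whether each replicate number pairs single libraries across times was not tested. On simulated counts for 12 h against 0 h (14554 genes, with a set effect), the fit recovered 56% of 2-fold and 95% of 4-fold changes and called 7 unchanged genes.

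The members and gene lists were chosen with earlier results of these data known. Named genes are the 15 largest increases and decreases among genes called with at least 5 CPM and no overlap, the 6 largest gains and losses in mean CPM, each member of the retinoid pathway, up to 5 called members of each other list with the largest change and those called against its prevailing direction (or the 2 most abundant where none was called), the 6 largest in each direction against 6 h, and a fixed set of marker genes. Some genes that the rule names are not reported here. Alternatives were other filters and scalings, DESeq2 1.42.0, no set term, a replicate block, set 2 alone, only the groups compared, a fold threshold and leaving out each library.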

Additional observations from a re-analysis of the deposited data

Results flagged for a closer look

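Among the 4 libraries of 0 h, the level of each of 182 genes described here was examined for a highest or lowest library that stands far from the others, by the gap to its neighbour as a share of the range. Chance flags about 1 in 20 groups, and 11 of the 182 genes were picked out in this way. In the Hox B cluster replicate 4 of 0 h was high for Hoxb1 (0.975 CPM), Hoxb4 (0.78 CPM), Hoxb7 (0.195 CPM) and Hoxb9 (5.17 CPM), and replicate 1 for Hoxb3os (0.299 CPM), levels below those of 12 h in each case except that Hoxb9 in replicate 4 exceeded replicate 1 of 12 h. Replicate 4 of 0 h was also high for Rxrg (23.5 CPM). Replicate 1 of 0 h was high for Tbx3 (147 CPM) and Foxa2 (0.599 CPM). Replicate 1 is the 0 h library of set 1, and the gap was taken without regard to set. At 12 h Tbx3 was also higher in set 1 (412 CPM) than in set 2 (220.5 CPM). Replicate 2 was high for Nanog (409 CPM), above replicate 1 of 12 h. Replicate 3 was high for Dnmt3l (343 CPM) and low for Kit (10.8 CPM). For Tbx3, Dnmt3l and Kit both 12 h libraries still lay beyond all 4 libraries of 0 h.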

How the results depend on the processing

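The count of 2070 genes at 12 h against 0 h (1194 higher, 876 lower) moved most with the set term and with the 12 h libraries. A log2 change of at least 1 left 944 genes (645 higher, 299 lower), no set term left 454 (356 and 98) and set 2 alone left 481 (375 and 106). Leaving out 1 library gave 469 to 2096 genes. The count was 469 without 12 h replicate 2 (385 and 84) and 644 without 12 h replicate 1 (479 and 165). With the replicate number as a block, which takes replicates 1 and 2 of each time, 1481 genes were called (839 higher, 642 lower), and 1332 of them were among the 2070. Only the groups compared gave 1484 (892 and 592), DESeq2's scaling in edgeR 2080, no filter 2037, a filter at 1 CPM 2087 and DESeq2 2486 (1296 and 1190), with 303 adjusted p given as NA. At 12 h against 6 h the count of 3 became 0 without the set term, 15 with the replicate block (12 higher, 3 lower), 1844 with only the groups compared (1 residual degree of freedom), 0 in set 2 alone, 9 without the filter, 38 with DESeq2 (903 NA) and 1 to 2 without 1 library. Of 158 called genes the naming rule or the text picks, 77 were not called without the set term, 72 in set 2 alone, 19 with the replicate block, 61 without 12 h replicate 1 and 72 without replicate 2, and 81 held in each fit without 1 library. The log2 change of Slc25a21 went to about 0 without 12 h replicate 2 (-0.000171, adjusted p = 1) and was at most 4.26 without any 1 library. The cause of these shifts was not tested. Fits on subsets also had fewer libraries, whereas the fit without the set term had all 12. Depth limits genes at a few counts per library, such as Hoxb6 and Hoxb8.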

Other observations

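Beyond the genes that the naming rule picked, further genes with known roles in development or metabolism were called at 12 h. They were chosen after their values were seen and are given as values. Kit, the receptor of stem cell factor, stood at 17.8, 17.6, 10.8 and 18 CPM at 0 h, 103 and 120.5 CPM at 6 h and 102 and 123 CPM at 12 h (2.85 ± 0.21, adjusted p = 1.92e-06 in edgeR). Gfra1, a coreceptor of glial cell line-derived neurotrophic factor, was at 0.449, 0.278, 0.528 and 0.78 CPM and then 18 and 12.7 CPM (4.81 ± 0.30, adjusted p = 2.66e-07). Nrp1, a coreceptor of semaphorins and vascular endothelial growth factor, was at 0.299, 0.557, 0.846 and 1.56 CPM and then 7.2 and 5.42 CPM (2.93 ± 0.42), and Edn1, which encodes endothelin, at 0.749, 0.928, 0.74 and 0.877 CPM and then 9.96 and 7.29 CPM (3.24 ± 0.30). Of the Groucho family of corepressors, Tle2 was at 0.599, 0.742, 0.317 and 0.39 CPM and then 6.84 and 7.94 CPM (3.86 ± 0.34), and Tle6 at 2.4, 3.43, 4.86 and 4 CPM and then 20.9 and 36.5 CPM (3.18 ± 0.20). Greb1l, a coactivator linked to RA signalling in kidney development, went from 2.25, 5.1, 3.91 and 4.29 CPM to 53.4 and 84.1 CPM (4.31 ± 0.21, adjusted p = 3.03e-08), and Zfp503, a zinc finger protein related to Zfp703, from 0.299, 0.0928, 0.423 and 0.487 CPM to 10.8 and 13.7 CPM (5.13 ± 0.48).

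Cidea, a lipid droplet protein, was at 0.299, 0.186, 0 and 0.292 CPM at 0 h and 6 and 5.98 CPM at 12 h (4.87 ± 0.58, adjusted p = 0.000105), and Plin2, which coats lipid droplets, at 0.449, 1.95, 1.58 and 1.17 CPM and then 6.12 and 10.5 CPM (2.83 ± 0.28, adjusted p = 2.41e-05), with 28.5 and 39 CPM at 48 h. Among decreases, Ndrg1 went from 60.8, 87.3, 126 and 83.2 CPM to 14 and 19.1 CPM (-2.40 ± 0.37, adjusted p = 0.00134). Grb10, an imprinted adaptor of insulin signalling, went from 36.1, 36.1, 60 and 71.8 CPM to 15.6 and 15.2 CPM (-1.69 ± 0.27) and stood at 90 and 77.2 CPM at 48 h. Podxl, a sialomucin, went from 27.9, 65.6, 117 and 28.6 CPM to 6.96 and 18.5 CPM (-1.997 ± 0.47) and stood at 139 and 277 CPM at 48 h. Trp73, a relative of p53, fell by 1.77 ± 0.35 on the log2 scale and stood at 2.23 and 5.2 CPM in DMSO. The calls of Podxl and Trp73 were lost without either 12 h library (adjusted p of up to 0.175 and 0.135) and without the set term (0.143 and 0.22), and that of Grb10 without 12 h replicate 2 (0.0569).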
